A study of Arabidopsis thaliana with 18 samples.

Results

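Late embryogenesis abundant (LEA) proteins are small, very hydrophilic proteins that build up in drying seeds and in vegetative tissue short of water. Most are disordered in solution, and several protect enzymes or membranes during drying or freezing. Abscisic acid (ABA) is the hormone that links water shortage to the transcription of many LEA genes, through ABF-type bZIP factors that bind the ABA-responsive element in promoters. The dehydrins are one LEA family, and the 10 genes described here lie outside it. They were taken by locus code from a table of 34218 features, and the set was chosen with earlier results of these data known.

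In published family surveys LEA7, AT3G17520, AT3G15670, ECP63 and AT2G42560 belong to the LEA_4 family, and these 5 are called the LEA_4 genes below. The label of the set counts the COR15A and COR15B pair in LEA_4 too, and the pair is kept apart here. The other 3, LEA4-5, LEA18 and LEA4-1, belong to a different family, LEA_1, whose members are also called group 4 LEA proteins. The label LEA_4 therefore does not cover all 10, and they are treated below in these 3 groups. The family names are background; no protein domains were searched.

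The samples were Arabidopsis thaliana seedlings grown for 5 days and then moved for 8 h to plates with 1 µM ABA or to mock plates. The 3 genotypes were wild-type Col-0, a vnd7 mutant, and the triple mutant of VND1, VND2 and VND3 (called vnd123), with the alleles not given in the sources used here. VND genes encode NAC-domain transcription factors that direct xylem vessel formation, and the title of the series asks which ABA-driven changes depend on them. Each of the 6 groups had 3 libraries of root RNA (18 in all), each from a pool of 50 to 100 seedlings. Library totals ran from 38325491 to 58705802 counted reads. The labels number the replicates without saying that they were grown separately, and every p-value here therefore rests on a spread between libraries that may be technical.

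The targeted genes were lower in their mutants, and VND1 was close to 0. Under mock, VND7 was at 0.396 ± 0.192 CPM (reads in every 1000000 counted, with SD, n = 3) in vnd7 against 2.32 ± 0.211 in Col-0. In vnd123 against Col-0, VND1 was at 0.0492 ± 0.0699 against 1.35 ± 0.120 CPM. VND2 was at 0.456 ± 0.0115 against 1.82 ± 0.346, and VND3 at 1.51 ± 0.232 against 3.76 ± 0.168. All 8 root marker genes were present in every group, summing to 8700.4 to 10480.5 CPM in the mock libraries and 5810.3 to 7155 CPM in the ABA libraries. In Col-0 most of this sum was 1 gene, PYK10, at 8580 ± 391 CPM under mock and 5735 ± 336 under ABA. The 8 shoot photosynthesis markers summed to 100 to 185 CPM under mock and 71.7 to 144 CPM under ABA, and none was at 0 in any group. The 12 seed storage and oil body markers summed to 1.03 to 2.20 CPM in all libraries, with 6 to 9 of them at 0 reads in each group.

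Upstream sequence is shown first, because ABA control of LEA genes is usually read from it. Windows of 250 bases before the annotated gene start were taken from the RefSeq annotation of build TAIR10.1; the build behind the deposited counts is not given in the sources used here, and the windows were not joined to it by coordinates. Each is written 5′ to 3′ on the strand of its gene, and capitals mark 2 motifs on either strand. ACGTG is the core of the ABA-responsive element, and it reads as CACGT where it lies on the opposite strand. CCGAC is the core of the C-repeat, the element bound by CBF and DREB2 factors, and it reads as GTCGG on the opposite strand. The palindrome CACGTG holds one ACGTG on each strand and counts as 2 overlapping matches. The 5 windows belong to the members with the highest level in each group under ABA (LEA7, COR15A and LEA4-5), to AT3G17520 as the other LEA_4 member above 10 CPM, and to AT2G42560, which stayed near 0 reads.
LEA7 (chr1:19619474-19619723, plus strand): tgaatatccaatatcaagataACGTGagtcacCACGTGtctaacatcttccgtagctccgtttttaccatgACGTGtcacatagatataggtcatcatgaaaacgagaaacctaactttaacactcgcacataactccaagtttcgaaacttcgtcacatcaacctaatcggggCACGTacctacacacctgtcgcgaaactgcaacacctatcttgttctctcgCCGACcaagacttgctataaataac
AT3G17520 (chr3:6000448-6000697, minus strand): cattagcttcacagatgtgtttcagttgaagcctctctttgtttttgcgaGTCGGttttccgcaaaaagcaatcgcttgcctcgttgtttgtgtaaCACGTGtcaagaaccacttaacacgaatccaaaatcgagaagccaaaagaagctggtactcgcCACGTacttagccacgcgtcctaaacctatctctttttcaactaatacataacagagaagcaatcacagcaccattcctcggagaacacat
AT2G42560 (chr2:17716913-17717162, minus strand): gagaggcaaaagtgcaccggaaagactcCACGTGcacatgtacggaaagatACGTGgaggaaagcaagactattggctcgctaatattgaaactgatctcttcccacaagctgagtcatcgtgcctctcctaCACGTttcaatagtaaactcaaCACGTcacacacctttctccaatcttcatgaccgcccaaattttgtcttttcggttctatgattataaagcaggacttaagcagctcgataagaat
COR15A (chr2:17712331-17712580, minus strand): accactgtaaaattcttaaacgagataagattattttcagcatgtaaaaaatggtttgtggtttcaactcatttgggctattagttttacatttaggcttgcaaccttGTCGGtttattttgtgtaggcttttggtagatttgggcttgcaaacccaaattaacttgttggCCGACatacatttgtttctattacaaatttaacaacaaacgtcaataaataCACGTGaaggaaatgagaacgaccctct
LEA4-5 (chr5:2090431-2090680, minus strand): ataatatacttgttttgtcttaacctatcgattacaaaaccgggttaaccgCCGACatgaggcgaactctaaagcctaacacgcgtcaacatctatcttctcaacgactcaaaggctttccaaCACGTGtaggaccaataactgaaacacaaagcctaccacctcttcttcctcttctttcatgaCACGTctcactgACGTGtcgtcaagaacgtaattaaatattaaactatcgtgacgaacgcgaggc

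ACGTG occurred in the windows of 9 of the 10 genes, and each of the 9 held 2 or more matches. Of 27443 protein-coding windows of the same length, 22.9% held the motif and 8.84% held 2 or more matches. Among genes that were higher under ABA in Col-0 by at least 2-fold, 38.1% of windows held it. CCGAC occurred in 8 of the 10 windows, against 12.0% of all windows. The last motif searched, CATGCA (the RY element of seed genes), occurred in 3 of the 10 (ECP63, LEA18 and LEA4-1), against 8.43% of all windows.

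LEA7, ECP63 and LEA4-1 held 5 ACGTG matches each, AT3G17520 and AT3G15670 held 3, LEA4-5 and LEA18 held 4, and COR15A held 2 together with 2 CCGAC matches. AT2G42560 also held 5 ACGTG matches and no CCGAC. The window of COR15B held none of the 3 motifs, and it overlaps the annotated gene of its neighbour COR15A. The annotated starts of COR15A and COR15B lie 364 and 560 bases before the start codon. For the other genes this distance runs from 44 (LEA4-1) to 118 (LEA7) bases, so the COR15 windows lie further upstream. The window of LEA4-1 overlaps the gene before it, AT1G32550. These are letter matches near an annotated start, which may not be the start used in root, and no binding was measured.

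**Figure D1:**
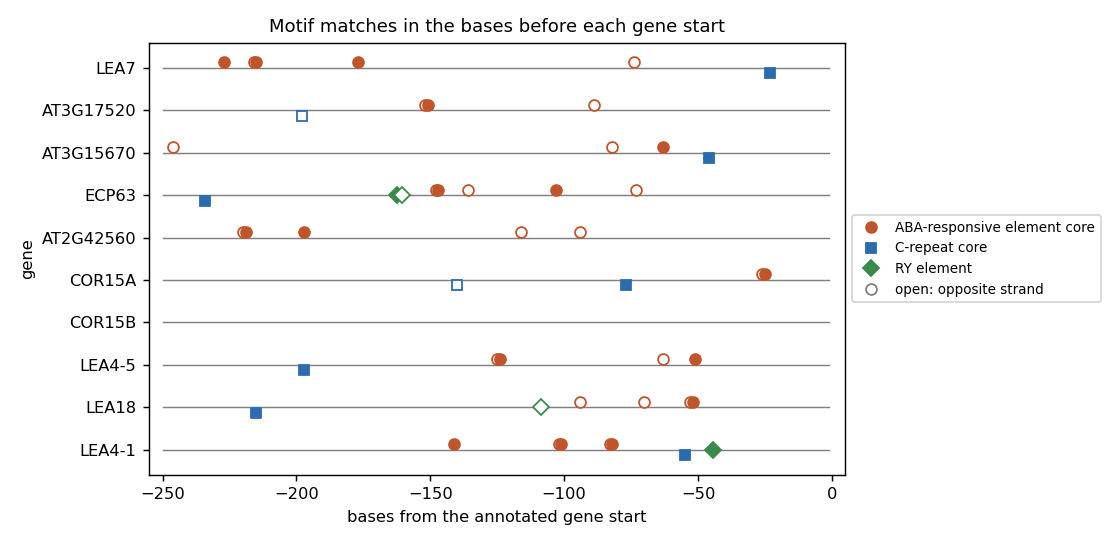
Positions of motif matches before each gene's annotated start, in bases (x axis), for the 10 genes (y axis). Circles are ABA-responsive element cores, squares C-repeat cores and diamonds RY elements, filled on the gene's strand and open on the opposite strand; 9 genes carry circles, COR15B carries no match.

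The first question was how the 10 genes responded to ABA in wild-type roots. After 8 h of ABA the level was higher for all 8 members that could be tested, in each of the 3 genotypes. The 8 include both COR15 genes, 4 of the 5 LEA_4 genes, and LEA4-5 and LEA18. The fitted log2 change (ABA minus mock) in Col-0 had a median of 8.40 over the 8, or 7.71 with COR15A and COR15B, at 0 reads under mock, held at their lower bounds. Over all 20869 genes tested the median was 0.00. LEA4-1 and AT2G42560 did not pass the filter on low counts and enter none of these counts. A member at 0 under mock could pass that filter only through the ABA libraries, so the count of 8 of 8 carries no weight as a share.

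In Col-0, 8 of 8 were called higher at an adjusted p under 0.05 (edgeR quasi-likelihood test, Benjamini-Hochberg over all genes), where 17.9% of all tested genes were. In vnd123, 8 of 8 were called, against 18.6% of all genes, and in vnd7 8 of 8, against 18.8%. With unscaled library sizes these backgrounds were 14.6%, 14.8% and 14.6%. The mock and ABA libraries did not overlap for any of the 8 in any genotype; 23.0%, 24.5% and 23.9% of all tested genes were higher without overlap in Col-0, vnd123 and vnd7. The highest adjusted p among the members was 0.00058 in Col-0, 0.000645 in vnd123 and 0.00834 in vnd7, each for COR15B. Whole roots were sequenced, so more cells with a transcript and more transcript per cell cannot be told apart.

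**Figure D2:**
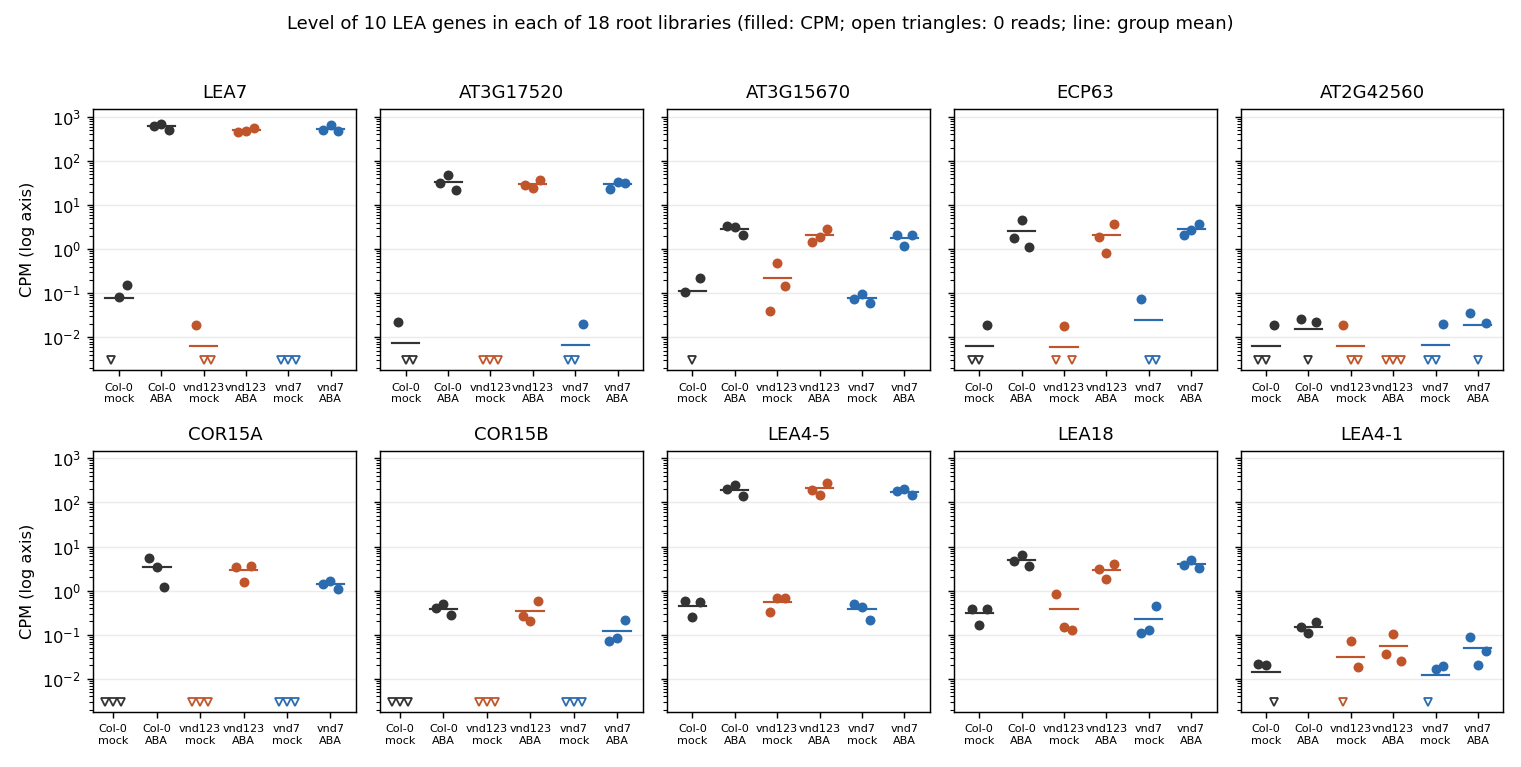
CPM (y axis, log scale) of each of the 10 genes in the 6 groups (x axis), 1 symbol per library; lines are group means, and open triangles at the foot mark libraries with 0 reads. LEA7 stands at 456 to 690 CPM in all 9 ABA libraries and at 0 to 8 reads in all 9 mock libraries, while AT2G42560 stays at 2 reads or fewer in every library.

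Among the LEA_4 genes, LEA7 had the highest level. It had 0, 4 and 8 reads in the 3 Col-0 mock libraries, 1, 0 and 0 in vnd123, and 0, 0 and 0 in vnd7. Under ABA it stood at 634, 690 and 500 CPM in Col-0, at 456, 491 and 569 CPM in vnd123, and at 496, 645 and 474 CPM in vnd7. The gene was thus near or at 0 in every mock library and among the more abundant transcripts of every ABA library, with the 3 genotypes' ABA ranges overlapping.

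The log2 change of LEA7 in Col-0 was 12.83 ± 0.29 (SE, adjusted p 6.96e-15, edgeR). Without mock replicate 3, which held 8 of the 12 mock reads, it was 13.73. The SE was worked back from the test statistic, and leaving out that library moved the change by more than the SE. In vnd123, with 1 mock read, the ratio of summed reads was 79928-fold, with a 95% counting interval of 14345 to 3157026. In vnd7, with no mock read, LEA7 was at least 29850-fold higher, taking the floor as 3 reads over the group. Per kilobase of exon, LEA7 reached 672 ± 108 CPM in Col-0 under ABA, rank 78 of 32548 genes, and ranks 103 and 85 in vnd123 and vnd7. A gene annotated on the opposite strand that overlaps LEA7, AT1G52695, had 0 reads in all 18 libraries. The library kit does not mark strand, so reads over both genes could not be assigned by strand. The 0 therefore does not show that AT1G52695 was silent.

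AT3G17520, an LEA_4 gene with no common symbol, came next among them. Its mock libraries held 1 read in Col-0, none in vnd123 and 1 in vnd7. With ABA the levels were 31.4, 49.0 and 21.9 CPM in Col-0, 28.0, 24.0 and 37.0 in vnd123, and 23.5, 33.4 and 32 in vnd7. All 9 ABA libraries lay far above all 9 mock libraries, and the genotypes overlapped. The ratio of summed reads was 4907-fold in Col-0 (95% counting interval 880 to 193851) and 4890-fold in vnd7 (877 to 193194), and the gene was at least 1572-fold higher in vnd123. The single mock read lay in replicate 1 of Col-0 and in replicate 3 of vnd7, so both ratios rest on it.

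AT3G15670, a close relative of LEA7, was detected under mock in 8 of 9 libraries. Its mock reads were 5, 0 and 12 in Col-0, 2, 26 and 8 in vnd123, and 4, 6 and 3 in vnd7. After ABA treatment its levels were 3.39, 3.22 and 2.11 CPM in Col-0, 1.42, 1.88 and 2.84 in vnd123, and 2.06, 1.19 and 2.07 in vnd7. Every ABA library was above every mock library, and the ABA libraries of vnd7 lay just below those of Col-0.

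The log2 change of AT3G15670 was 4.64 ± 0.62 in Col-0, 3.17 ± 0.56 in vnd123 and 4.47 ± 0.65 in vnd7. Without the mock library with the most reads it was 5.70 in Col-0 (replicate 3 left out) and 4.4 in vnd123 (replicate 2 left out). Its coding sequence and that of LEA7 shared no identical run longer than 17 bases. Exon sequence outside the coding part was not compared.

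ECP63, named after a carrot embryogenic-cell protein, had 0, 0 and 1 mock reads in Col-0, 0, 1 and 0 in vnd123, and 4, 0 and 0 in vnd7. The ABA libraries gave 1.80, 4.65 and 1.12 CPM in Col-0, 1.92, 0.824 and 3.64 in vnd123, and 2.08, 2.78 and 3.78 in vnd7. The groups did not overlap between treatments, and the ABA libraries of one genotype differed by over 4-fold in Col-0 and in vnd123.

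The ratio of summed reads for ECP63 was 356-fold in Col-0 (95% counting interval 63.5 to 14126) and 337-fold in vnd123 (60.0 to 13357). Its fitted log2 change in vnd7 was 6.76 ± 0.84, and 6.14 without mock replicate 2. Without mock replicate 1, which held all 4 mock reads, no mock read was left. The fitted value was then 10.13, and its size is not measured. The fitted change in Col-0, 8.07, was 7.26 without ABA replicate 2 and 9.93 without mock replicate 3. The fitted change in vnd123, 7.92, was 7.30 without ABA replicate 3 and 9.69 without mock replicate 2. The mock libraries left out for 9.93 and 9.69 held the only mock read of their group, so these sizes are not measured either.

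AT2G42560 was the exception among these 5 LEA_4 genes. Of 11 LEA_4 family members outside the 10, only 6 passed the filter on low counts, so failing it was not particular to AT2G42560. The gene had 3 reads in the 9 mock libraries together and 5 in the 9 ABA libraries, and no library held more than 2. It lies on chromosome 2 next but one to COR15A, with AT2G42550 between them. At this depth no ABA change was detectable, and its window with 5 ACGTG matches is printed above beside those of the genes that rose.

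COR15A encodes a chloroplast protein that stabilises membranes during freezing, and it is a classical target of the CBF factors. It had no read in any of the 9 mock libraries. Under ABA it stood at 5.57, 3.38 and 1.23 CPM in Col-0, at 3.44, 1.60 and 3.61 in vnd123, and at 1.44, 1.63 and 1.09 in vnd7. The vnd7 libraries lay at the lower end, overlapping the lowest Col-0 library. COR15A was at least 162-fold higher under ABA in Col-0, at least 157-fold in the triple mutant and 77.5-fold or more in vnd7, each against a floor of 3 reads over the group.

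COR15B, its neighbour on the same strand, also had no read in any mock library. Its ABA libraries held 16, 18 and 13 reads in Col-0, 14, 8 and 23 in vnd123, and 4, 4 and 10 in vnd7. It was at least 19.0-fold, 18.2-fold and 6.64-fold higher under ABA in Col-0, vnd123 and vnd7. Without ABA replicate 3 the fitted log2 change in vnd7, 5.59, was 4.96, with an adjusted p of 0.0316 (edgeR). Both values are fits against 0 mock reads, so their size is not measured.

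COR15A had 4.31 to 20.3 times the reads of COR15B within the same ABA library. The coding sequences of the pair were identical over 82.6% of the longer one, with a longest identical run of 31 bases, shorter than the 150-base reads. Their other exon sequence was not compared. COR15B also overlaps AT2G42520 on the opposite strand, which had 1900 to 3387 reads in every library, mock included. The library kit named in the labels does not mark strand. COR15B was at 0 in all 9 mock libraries beside that neighbour. The effect of the overlap on the COR15B counts was not tested.

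Among the LEA_1 genes, which in Arabidopsis support recovery from water deficit, LEA4-5 had the highest level. Its mock reads were 26, 12 and 30 in Col-0, 17, 37 and 36 in vnd123, and 27, 26 and 11 in vnd7. Under ABA it stood at 202, 246 and 139 CPM in Col-0, at 192, 151 and 279 in vnd123, and at 182, 200 and 148 in vnd7. Unlike the other strongly changed members it was detected in every mock library, so its change is well measured: the log2 change was 8.73 ± 0.33 in Col-0, 8.52 ± 0.32 in vnd123 and 8.84 ± 0.34 in vnd7 (adjusted p 4.36e-13, 3.63e-13 and 3.67e-13, edgeR).

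LEA18 (also called LEA4-2) had 18, 8 and 20 mock reads in Col-0, 44, 8 and 7 in vnd123, and 6, 8 and 23 in vnd7. Under ABA it stood at 4.59, 6.30 and 3.60 CPM in Col-0, at 3.05, 1.85 and 4.05 in vnd123, and at 3.79, 5.02 and 3.33 in vnd7. Treatments did not overlap within any genotype. The log2 change was 3.94 ± 0.54 in Col-0, 3.0 ± 0.52 in vnd123 and 4.16 ± 0.55 in vnd7; it was 4.41 in vnd123 without mock replicate 1 and 5.02 in vnd7 without mock replicate 3, the mock libraries with the most reads.

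LEA4-1 was barely detected. Its ABA libraries held 6, 4 and 9 reads in Col-0, 2, 4 and 1 in vnd123, and 5, 1 and 2 in vnd7, against 0 to 4 in the mock libraries. The ratio of summed reads was 11.5-fold in Col-0 (19 against 2 reads, 95% counting interval 2.78 to 102) and 4.43-fold in vnd7 (8 against 2 reads, 0.884 to 42.8), and vnd123 had 7 against 5 reads. With no filter on low counts its Col-0 change had an adjusted p of 0.0440 in edgeR and 0.0548 in DESeq2.

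**Figure D3:**
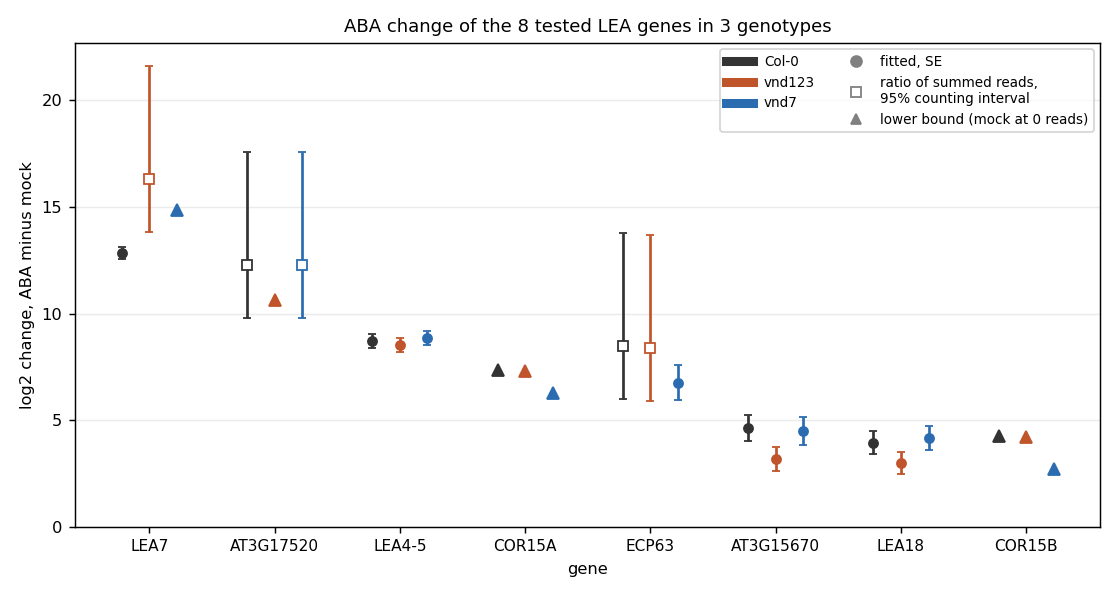
Log2 change under ABA (y axis) of the 8 tested genes (x axis) in Col-0, vnd123 and vnd7. Circles are fitted values with SE, open squares ratios of summed reads with 95% counting intervals, and triangles lower bounds where all mock libraries had 0 reads; LEA4-5 has near-equal values of 8.73, 8.52 and 8.84 in the 3 genotypes.

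Levels between members were compared per kilobase of exon. In Col-0 under ABA the order ran from LEA7 (672 ± 108 CPM per kilobase) through LEA4-5 (217 ± 59.2), AT3G17520 (26.7 ± 10.8), LEA18 (7.61 ± 2.15), AT3G15670 (2.85 ± 0.685), COR15A (2.14 ± 1.37), ECP63 (1.48 ± 1.1), COR15B (0.248 ± 0.0639) and LEA4-1 (0.178 ± 0.0520) to AT2G42560 at 0.00725. The neighbours AT3G15670, COR15A and ECP63 did not differ beyond their spread, nor did COR15B and LEA4-1. The first 4 places were the same in vnd123 and vnd7, and ECP63 stood above COR15A in vnd7. Per kilobase of coding sequence, COR15A moved ahead of AT3G15670. In vnd7 COR15A then also stood above ECP63 (3.30 against 2.14 CPM per kilobase of coding sequence).

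Most of the reads came from a pair of genes. LEA7 and LEA4-5 together made up 93.3% to 95.5% of the 10 genes' reads in each ABA library, with LEA7 alone at 63.2% to 74.6%. The 10 genes summed to 665 to 1003 CPM in the ABA libraries and to 0.513 to 1.40 CPM in the mock libraries. They made up 0.0649% to 0.0968% of all counted reads under ABA.

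Among the 9 ABA libraries, the abundant members varied least. The highest library exceeded the lowest by 1.51-fold for LEA7, 2.00-fold for LEA4-5, 2.24-fold for AT3G17520, 2.85-fold for AT3G15670 and 3.40-fold for LEA18. The spread was 5.11-fold for COR15A, 5.64-fold for ECP63 and 8.34-fold for COR15B. COR15B rests on 4 to 23 reads in these libraries, so counting error is a larger part of its values than for COR15A with 51 to 220 reads or ECP63 with 32 to 177.

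The members also tended to be high or low in the same libraries. Replicate 2 of Col-0 and replicate 3 of vnd123 were above the median of the 9 ABA libraries for 8 of 8 members. Replicate 2 of vnd123 and replicate 1 of vnd7 were above it for 0 of 8. What sets these libraries apart was not tested, and genes of one library are not independent.

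**Figure D4:**
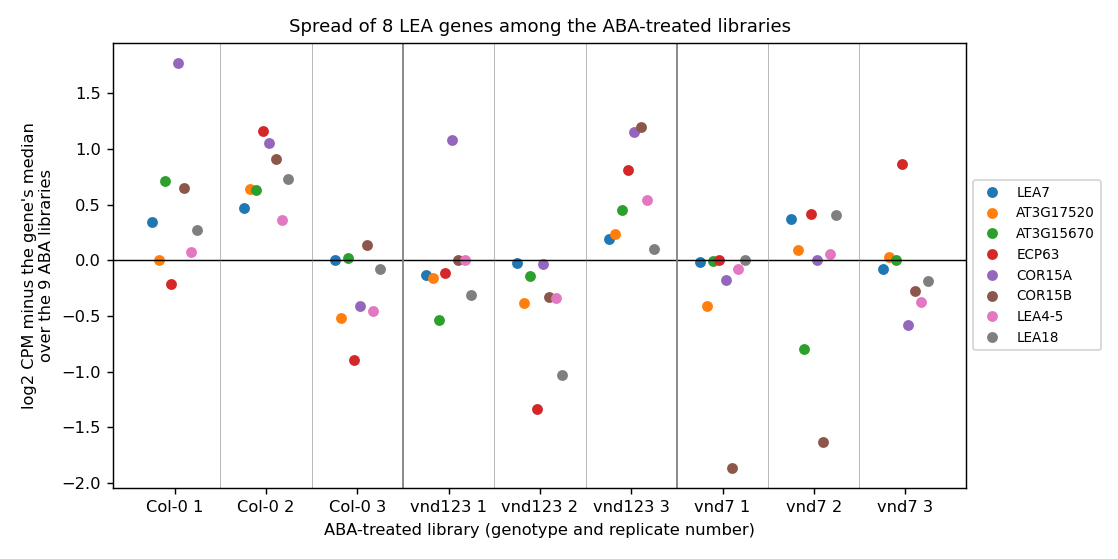
Log2 CPM of 8 genes in each ABA-treated library (x axis) minus the gene's median over the 9 libraries (y axis). All 8 points of Col-0 replicate 2 and of vnd123 replicate 3 lie above 0, while no point of vnd123 replicate 2 or vnd7 replicate 1 does; COR15B lies furthest below 0, in vnd7 replicates 1 and 2.

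The second question was whether the mutants differed from Col-0. None of the 8 tested members was called in any comparison with wild type, and each such count was 0 in DESeq2 as well. Under mock, 0 of 8 were called in vnd123 (lowest adjusted p 0.661, edgeR), where 0.609% of all genes were, and 0 of 8 in vnd7 (lowest adjusted p 0.869), where 0.0671% were. At an unadjusted p under 0.05, 1 member passed in each mutant, LEA7, on the 12 reads of Col-0 against 1 and 0 reads; 6.48% of all genes passed in vnd123 and 4.87% in vnd7. Under ABA, 0 of 8 were called in vnd123 (lowest adjusted p 0.557), against 1.09% of all genes, and 0 of 8 in vnd7 (lowest adjusted p 0.311), against 0.163%. At an unadjusted p under 0.05, 0 members passed in vnd123, where 10.3% of all genes did, and 2 in vnd7, COR15A and COR15B, where 12.8% did.

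The intervals show what these comparisons could detect. For LEA7 under ABA the log2 difference from Col-0 was -0.27 in vnd123 (95% interval -0.57 to 0.04) and -0.18 in vnd7 (-0.48 to 0.13). For LEA4-5 it was 0.08 in vnd123 (-0.34 to 0.51) and -0.15 in vnd7 (-0.58 to 0.28). For LEA18 it was -0.69 (-1.59 to 0.21) in vnd123 and -0.25 (-1.13 to 0.63) in vnd7. The intervals of LEA7 and LEA4-5 excluded a halving of the level, and those of LEA18 did not. The sign of the LEA4-5 differences turned when 1 library was left out: it was -0.17 in vnd123 without vnd123 ABA replicate 3 and 0.056 in vnd7 without Col-0 ABA replicate 2.

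Among the 8 tested members under ABA, COR15A and COR15B in vnd7 had the largest fitted differences from Col-0. COR15A was at 3.39 ± 2.17 CPM (SD, n = 3) in Col-0, 2.88 ± 1.12 in vnd123 and 1.39 ± 0.275 in vnd7. The log2 difference of COR15A between vnd7 and Col-0 was -1.28 ± 0.46 (SE; 95% interval -2.29 to -0.28, unadjusted p 0.0164, adjusted p 0.311, edgeR). Without Col-0 ABA replicate 1, its highest library, the difference was -0.72, and over the 24 alternatives the adjusted p ranged from 0.171 to 0.649.

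COR15B was at 0.392 ± 0.101 CPM in Col-0, 0.353 ± 0.210 in vnd123 and 0.123 ± 0.0789 in vnd7. Its difference between vnd7 and Col-0 was -1.67 ± 0.67 (95% interval -3.12 to -0.22, unadjusted p 0.0275, adjusted p 0.347, edgeR), and -2.30 without vnd7 ABA replicate 3. The vnd7 libraries of COR15B and of AT3G15670 lay below all Col-0 libraries without overlap, as 7.83% of all tested genes did. Neither COR15 gene passed the threshold. In the same libraries the 8 shoot photosynthesis markers summed to 103 to 144 CPM in Col-0, 71.7 to 91.2 in vnd123 and 77.0 to 116 in vnd7, and their part in the COR15 values was not tested.

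The difference in ABA response between each mutant and Col-0 was tested as an interaction. No member passed: the lowest adjusted p was 1.00 for vnd123 and 0.997 for vnd7 (edgeR). At an unadjusted p under 0.05, 1 member passed in each, LEA7, whose responses rest on 0 to 12 mock reads. Of all 20869 genes 0.0% were called in either, with 748 and 835 (3.58% and 4.0%) at an unadjusted p under 0.05; DESeq2 called 5 and 0 genes, no member among them. For LEA4-5, the abundant member with mock reads in all libraries, the response differed from that of Col-0 by -0.20 in vnd123 (95% interval -1.35 to 0.95) and 0.11 in vnd7 (-1.1 to 1.33) on the log2 scale. The mock side of this comparison holds 64 to 90 reads per group.

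Other LEA genes were counted from 3 lists. Of 11 other LEA_4 genes, 6 were tested, and 3 rose in Col-0, 3 in vnd123 and 4 in vnd7, with 0 lower (median log2 change 2.05, 1.90 and 2.22). LEA28 was the largest, going from 1.14 ± 0.175 to 273 ± 80.7 CPM in Col-0 (log2 change 7.90 ± 0.27, adjusted p 1.00e-13, edgeR). LEA36 rose by 3.02 and LEA9 by 2.71 on the log2 scale.

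Of 10 dehydrins, 8 were tested. In Col-0 6 rose and 1 fell (median 1.61), in vnd123 7 rose and 1 fell (1.63), and in vnd7 6 rose and 1 fell (1.61). RAB18, a standard marker of ABA response, rose by 7.14 ± 0.36. ERD10 rose by 1.74, COR47 by 1.47 and LTI30 by 1.81. These 3 were already abundant without ABA (COR47 at 1425 CPM under mock), unlike the 10 genes.

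Of 20 genes of other LEA families, 12 were tested, and 9 rose in Col-0, 9 in vnd123 and 8 in vnd7, with 0 lower (medians 1.66, 1.80 and 1.24). LEA15 rose by 3.88, LEA16 by 1.81, LEA14 by 1.74 and SAG21 by 0.95 on the log2 scale in Col-0. The members' medians were 8.22 in vnd123 and 7.80 in vnd7 (7.61 and 6.52 at bounds); members at or near 0 under mock passed the filter only through their ABA libraries, so these medians and those of the lists are not set against each other.

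**Figure D5:**
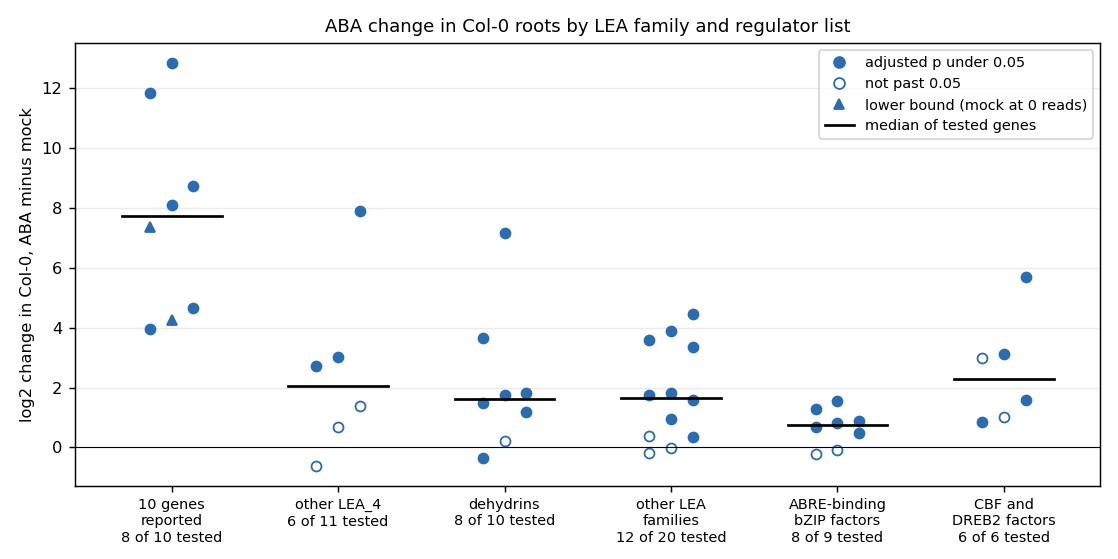
Log2 change under ABA in Col-0 (y axis) of the tested genes in the set of 10, in 3 lists of other LEA genes and in 2 lists of transcription factors (x axis, with tested of listed genes); filled symbols passed an adjusted p of 0.05, triangles are lower bounds and lines are medians. The 8 tested genes of the set have a median of 7.71 with bounds, and the other LEA lists have medians of 2.05, 1.61 and 1.66. Each list holds only genes that passed the filter on low counts. Members at or near 0 under mock passed it only through their ABA libraries, so the medians are not set against each other.

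Transcription factors known to act on LEA promoters were also measured. Of 9 ABRE-binding bZIP factors 8 were tested, with 6 higher and 0 lower in Col-0, 6 and 0 in vnd123, and 5 and 2 in vnd7 (medians 0.75, 0.82 and 0.48). GBF3 rose by 1.55, ABF2 by 1.28, ABF3 by 0.89 and ABF1 by 0.69. All 6 CBF and DREB2 factors, which bind the C-repeat, were tested, with 4 higher in Col-0, 5 in vnd123 and 4 in vnd7, and 0 lower (medians 2.29, 2.37 and 2.39, the last 2.19 at bounds).

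In Col-0, CBF3 rose by 3.11 (adjusted p 2.08e-07, edgeR), to 3.98 ± 0.881 CPM, and DREB2A by 0.86, to 86.7 ± 6.04 CPM. CBF2 rose by 1.59, and CBF1 went from 1 to 58 reads, a ratio of 70.3-fold (95% counting interval 12.1 to 2825). The 5 seed maturation regulators (ABI3, FUS3, LEC1, LEC2 and ABI4) summed to at most 0.166 CPM in any library, and 0 of them were tested. Of the 12 seed storage and oil body markers 3 were tested, with 0 higher and 1 lower in each genotype; in Col-0 that was 2S4, a seed albumin gene, with 29 mock reads and 0 under ABA.

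Among the tissue markers, 7 of 8 shoot photosynthesis genes were tested, with 0 higher in any genotype and 2, 4 and 2 lower in Col-0, vnd123 and vnd7. In Col-0, PSAF fell by 0.70 and LHCB3 by 0.87. Of the 8 root markers 2 were higher and 2 lower in Col-0 and in vnd7, and 2 higher and 1 lower in vnd123. In Col-0, PYK10 fell by 0.58, SCR fell by 0.21, EXPA7 rose by 0.47 and COBL9 rose by 0.30. The part of tissue composition in the LEA changes was not tested.

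The genes whose pattern over the 6 groups came closest to the members' mean profile were sought among 17208 genes outside the members and lists. Only genes with a mean log2 CPM above 1 were searched. Likeness was the root mean square difference of 6 group means of log2 CPM, each gene centred on its own mean. The closest were KIN1 (0.15), TSPO (0.26), PLP4 (0.45), HAI1 (0.51) and HAI3 (0.58). The members themselves differed from their own mean profile by 0.49 (COR15A) to 3.31 (LEA7).

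KIN1, a small cold- and ABA-induced protein, was at 9.03 ± 4.78 CPM under mock and 760 ± 292 under ABA in Col-0, with 726 ± 110 in vnd123 and 690 ± 105 in vnd7 under ABA. TSPO, a membrane protein known to be induced by ABA, went from 0.393 ± 0.224 to 28.6 ± 10.2 CPM in Col-0. HAI1 and HAI3, type 2C protein phosphatases of the ABA pathway, reached 134 ± 46.1 and 45.7 ± 12.1 CPM under ABA in Col-0. PLP4, a patatin-related gene, reached 28.1 ± 4.25 CPM. In all 5 the treatments differed far more than the genotypes, so the measure ranks mainly the size of the ABA change.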

How the data were processed

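RNA was read as paired 150-base reads, and the deposited values are whole-number counts of reads per gene, with 18 columns. The tools HISAT2 and HTSeq stand in the submitters' processing notes; tool versions, genome build and annotation: not given in the sources used here. From the deposited counts, group contrasts were fitted with edgeR 4.0.16 (limma 3.58.1, R 4.3.3): TMM scaling, filterByExpr by group (20869 genes tested), 1 coefficient per group over all 18 libraries, quasi-likelihood tests and Benjamini-Hochberg adjustment over all tested genes at 0.05. CPM use TMM-scaled library sizes. Where a mock group had 0 reads, folds are lower bounds against 3 reads over the group; with 1 to 3 reads, ratios carry exact 95% intervals. These intervals and floors cover counting error only. The SE and 95% intervals of fitted changes were worked back from the log2 change and the F statistic of the test. DESeq2 1.42.0, other scalings, no filter, fewer groups, a replicate block and leaving out each library were alternatives. The code was tested on simulated counts.

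All 10 members are named. Of each list up to 4 genes past the threshold in the Col-0 ABA response are named, smallest p first, or the gene with the smallest p. The members and lists were chosen with earlier results of these data known. Replicates of a group differed by more than counting noise (chi-square per degree of freedom 8.96 to 31.1).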

Additional observations from a re-analysis of the deposited data

How the results depend on the processing

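All 24 called ABA responses (8 members in 3 genotypes) kept their direction and their call in every alternative that could test them. None of the 48 genotype and interaction values passed the threshold in any alternative, but 26 of them took the opposite sign when 1 library was left out, 8 of these among the 16 under ABA. The log2 values then ran, in vnd123 under mock, from -0.27 to 2.02 for AT3G15670, -1.86 to 1.78 for ECP63, -0.0075 to 0.55 for LEA4-5 and -1.15 to 0.67 for LEA18. In vnd7 under mock they ran from -1.87 to 1.74 for AT3G17520, -1.11 to 0.53 for AT3G15670 and -1.86 to 3.37 for ECP63. In vnd123 under ABA they ran from -0.43 to 0.17 for AT3G17520, -0.83 to 0.56 for ECP63, -0.63 to 0.34 for COR15A, -0.71 to 0.11 for COR15B and -0.17 to 0.30 for LEA4-5. In vnd7 under ABA they ran from -0.44 to 0.16 for AT3G17520, -0.16 to 0.99 for ECP63 and -0.35 to 0.056 for LEA4-5. In the vnd123 interaction they ran from -0.20 to 2.16 for AT3G17520, -2.01 to 1.62 for ECP63, -0.63 to 0.34 for COR15A, -0.71 to 0.11 for COR15B, -0.46 to 0.092 for LEA4-5 and -1.36 to 0.47 for LEA18. In the vnd7 interaction they ran from -1.94 to 1.67 for AT3G17520, -1.23 to 0.40 for AT3G15670, -3.17 to 2.06 for ECP63, -0.14 to 0.41 for LEA4-5 and -0.11 to 1.1 for LEA18. COR15A and COR15B had no mock read, and AT3G17520 and ECP63 had few or none. Their mock and interaction values are therefore set by the fit and are not measured sizes. The number of members called higher under ABA was 8 in every alternative, except 9 in Col-0 with no filter on low counts (LEA4-1 added) and 7 in vnd7 when only the groups compared were fitted (COR15B then failed the filter); leaving out 1 library gave 8 to 8 in each genotype. In the genotype and interaction comparisons it was 0 throughout, also without each library.

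The deviations of same-numbered libraries from their group means had correlations of -0.06 to 0.20 over 21 pairs, with 4 above 0.1. With a replicate block 8, 8 and 8 members were called under ABA and 0 in the other comparisons, and the counts over all genes were 6661, 6894, 7097, 135, 17, 337 and 49, with 0 in both interactions, against 6532, 6757, 6942, 127, 14, 227, 34 and 0. In the vnd7 comparison under mock every library correlated best with its own number (0.20, 0.057 and 0.13 for replicates 1, 2 and 3). Whether same-numbered libraries were handled together was not tested.

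Over all genes, DESeq2 called 213, 32, 398 and 147 genes in the 4 genotype comparisons (vnd123 and vnd7 under mock, then under ABA) where edgeR called 127, 14, 227 and 34, and 5 in the vnd123 interaction. Fitting the compared groups alone gave 56 in vnd7 under ABA and 1 in the vnd123 interaction. The vnd123 count under ABA was 135, 116 and 121 without Col-0 ABA replicates 1 and 2 and vnd123 ABA replicate 2, and the vnd123 count under mock was 84 without its replicate 2. The cause was not tested. Depth limits LEA4-1, AT2G42560 and every fold against 0 mock reads.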
